A study of Daucus carota with 6 samples.

Results

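Polyphenol oxidases are copper enzymes that oxidise phenols such as DOPA and caffeic acid esters to reactive quinones, the first step of the browning of cut plant tissue. Their precursors carry targeting sequences for the thylakoid lumen of plastids, while most phenols are stored in the vacuole, so enzyme and substrate meet mainly when a cell is damaged. DOPA is also the compound from which betalain pigments such as betanin are made. The 4 genes described here were chosen by their IDs among the 35073 rows of the deposited expression table, and all 4 have an NR protein description (NCBI's non-redundant protein set) of a chloroplastic polyphenol oxidase. The table's Pfam column, which that choice did not use, gave each of the 4 the same set of domains: the tyrosinase domain that holds the copper centre, the polyphenol oxidase middle domain (PPO1_DWL) and the C-terminal domain (PPO1_KFDV). All 4 matched a gene of the RefSeq annotation of carrot (assembly DH1 v3.0).

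Expression was measured by RNA-seq of mRNA from fleshy roots of carrot (Daucus carota) in 6 samples, 3 of each group. BC roots came from stably transformed carrots with the betalain synthesis genes CYP76AD1S, cDOPA5GTS and DODA1S, which accumulate betanin throughout the plant. WT roots came from non-transgenic carrots. The labels name neither the promoters of the introduced genes nor the number of transformed lines, the cultivar or the age of the plants. They also leave unsaid whether samples of a group are separate plants, so a p-value here speaks of the spread among these 6 samples, which may be technical. Levels are FPKM, fragments scaled by transcript length and library size, so they can be set side by side between genes. FPKM totals ran from 1141946 to 1287459 per sample. The number of reads behind a value is unknown.

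Before the single genes, the tissue itself was checked with lists of marker genes, because polyphenol oxidases are plastid proteins. Of 63 tested green tissue markers (chlorophyll-binding, photosystem and Rubisco small subunit genes), 45 rose and 5 fell in BC (over all tested genes 22.8% were called higher and 23.5% lower), and their summed level was 6352 to 9409 FPKM in WT and 21622 to 25237 FPKM in BC. Without WT replicate 3 or BC replicate 1 it was 3 that fell. A further 6 rows of that list were at 0 in all samples. Of 12 tested root markers (mainly high-affinity nitrate transporters, sucrose synthases and the carrot allergen Dau c 1), 7 rose and 2 fell (4 rose without WT replicate 3, and 1 fell without BC replicate 1), with sums of 2942 to 3179 FPKM in WT and 9350, 10717 and 4956 FPKM in BC replicates 1 to 3. Most of these root sums came from DCAR_027034.v1.0, described as a carrot pathogenesis-related protein (fragment). It held 2691 to 2798 FPKM in WT and 8060, 9076 and 4222 FPKM in BC replicates 1 to 3. The root sums therefore speak mainly of that gene. Of 8 tested periderm markers 4 rose and 1 fell (0 fell with any 1 sample other than BC replicate 3 left out, and 2 without that one), with sums of 64.6 to 79.2 FPKM in WT and 126 to 158 FPKM in BC. The root and periderm lists each had 2 rows at 0 in all samples. The one xylem marker found, fasciclin-like arabinogalactan protein 12 (DCAR_018821.v1.0), rose from 0.227 ± 0.0635 to 2.29 ± 0.679 FPKM. These markers moved in the same contrast as the polyphenol oxidases, and their part in the results below was not tested. In bulk tissue, more cells of a type and more RNA per cell cannot be told apart.

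The polyphenol oxidase family as a whole stood higher in BC than in WT roots. Summed over the 4 genes, the level was 7.67, 15.97 and 3.53 FPKM in WT replicates 1 to 3 and 48.6, 87.82 and 38.66 FPKM in BC replicates 1 to 3. Every BC sample was above every WT sample, and the group means were 9.06 ± 6.33 FPKM (SD, n = 3) and 58.4 ± 26.0 FPKM (SD, n = 3), a ratio of 6.44. The mean log2 difference was 2.86, and the exact two-sided permutation test gave p = 0.1, the smallest value that 3 against 3 samples allow. In the fit across all 21033 tested genes, 3 of the 4 members rose at a Benjamini-Hochberg adjusted p below 0.05 (limma), and the other did not pass. Across all tested genes 22.8% were called higher in BC and 46.4% in either direction. BC values lay wholly above WT values for all 4 members, as they did for 27.1% of the tested genes. For DCAR_021051.v1.0 and DCAR_019634.v1.0, below 1 FPKM in every WT sample, this and the direction of the change were fixed in advance. To be tested, a gene needed at least 1 FPKM in at least 3 samples, which only their BC samples could supply.

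**Figure D1:**
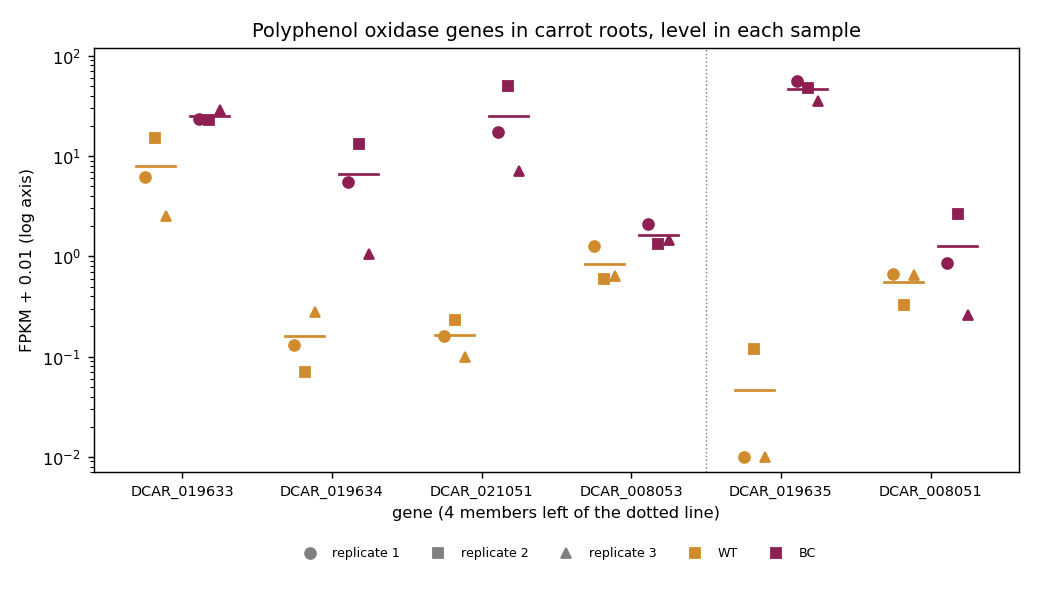
FPKM + 0.01 on a log axis for the 4 polyphenol oxidase genes (left of the dotted line) and for 2 further genes annotated with the enzyme, 1 point per sample, marker shape by replicate, horizontal bars at the group means. DCAR_021051 and DCAR_019634 lie below 0.3 FPKM in all WT samples and spread widely in BC, whereas DCAR_019633 lies between 22.94 and 29.03 FPKM in BC.

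DCAR_021051.v1.0 (RefSeq LOC108192978), described as polyphenol oxidase I, had the largest fold change of the 4. WT replicates 1 to 3 held 0.15, 0.22 and 0.09 FPKM of it, BC replicates 1 to 3 held 17.43, 50.39 and 7.14 FPKM. The lowest BC sample was 32.5 times the highest WT sample, so the groups were far apart, while the BC samples themselves differed 7.06-fold. The gene passed the filter on low values through its BC samples alone, so to be tested it had to be higher in BC. On the log2(FPKM + 1) scale it rose by 4.10 (SE 0.61, adjusted p = 0.00216, Benjamini-Hochberg, limma), a value reached by 0.842% of the tested genes. That scale understates changes of low genes: the ratio of the mean FPKM was 163. This ratio rests on WT values near 0, rounded to 2 decimals and of unknown read depth, so its size is uncertain. In rank, the gene went from a level above 2.53% of the tested genes in WT to one above 61.7% of them in BC.

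DCAR_019633.v1.0 (LOC108223815), also described as polyphenol oxidase I, was the most abundant of the 4 in every WT sample. Its values were 6.15, 15.11 and 2.54 FPKM in WT replicates 1 to 3 and 23.61, 22.94 and 29.03 FPKM in BC replicates 1 to 3. Here the spread lay in WT, 5.95-fold between replicates 2 and 3, while the BC samples were within 1.27-fold of each other. Of 15604 genes expressed in WT, 0.115% reached that ratio of replicate 2 over 3. This pair of samples was picked from the gene's own values, so genes spread as widely over another pair are not counted. The gene rose by 1.81 on the log2 scale (SE 0.50, adjusted p = 0.0252, Benjamini-Hochberg, limma), with a ratio of mean FPKM of 3.18. Leaving out WT replicate 1 or BC replicate 1, 2 or 3 took the adjusted p to 0.0698, 0.0707, 0.0525 and 0.0703 (Benjamini-Hochberg, limma), so the call was lost without any of these 4 samples.

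DCAR_019634.v1.0 (LOC108220626) has the next ID number after DCAR_019633.v1.0, and no RefSeq gene lies between their matches, so the pair are neighbours in that assembly. Its level was 0.12, 0.06 and 0.27 FPKM in WT replicates 1 to 3 and 5.49, 13.16 and 1.05 FPKM in BC replicates 1 to 3. Although BC stayed above WT, BC replicate 3 was only 3.89 times WT replicate 3, and the BC samples spanned 12.5-fold. It rose by 2.32 on the log2 scale (SE 0.64, adjusted p = 0.0250, Benjamini-Hochberg, limma). That call too depended on single samples, with adjusted p of 0.0679, 0.0635 and 0.0650 when WT replicate 1, 2 or 3 was left out and 0.0815 without BC replicate 1 (Benjamini-Hochberg, limma). A pseudocount of 5 and quantile normalization also ended it (adjusted p = 0.0551 and 0.0696, Benjamini-Hochberg, limma). All 4 members passed the filter on low values, at least 1 FPKM in at least 3 samples. DCAR_019634.v1.0 and DCAR_021051.v1.0 did so through their BC samples alone, so to be tested they had to be higher in BC. DCAR_008053.v1.0 reached 1 FPKM in 1 WT sample.

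DCAR_008053.v1.0 (LOC108206452) was low in both groups, at 1.25, 0.58 and 0.63 FPKM in WT replicates 1 to 3 and 2.07, 1.33 and 1.44 FPKM in BC replicates 1 to 3. The groups did not overlap, but by a narrow margin: the lowest BC sample was 1.06 times the highest WT sample. The log2 difference of 0.53 (SE 0.21) did not pass (adjusted p = 0.0781, Benjamini-Hochberg, limma), except without WT replicate 1 (log2 difference 0.69, adjusted p = 0.0429, Benjamini-Hochberg, limma). With quantile normalization the difference was 0.13. The gene was below most others in both groups, above 5.95% of the tested genes in WT and 6.83% in BC.

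**Figure D2:**
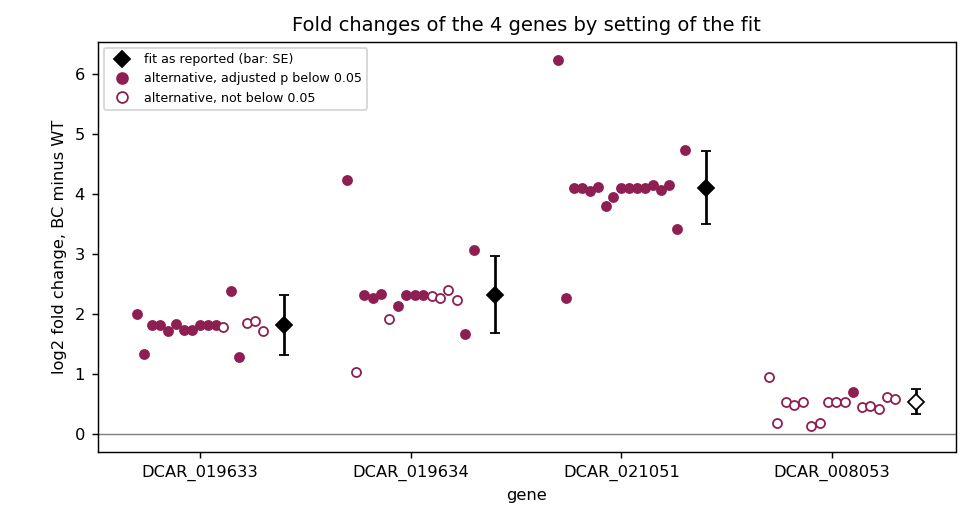
Log2 fold change, BC minus WT, of the 4 genes in the fit as reported (diamond, bar for the SE) and in each alternative (circles, filled where the adjusted p is below 0.05). All values lie above 0, and DCAR_021051 is filled in every alternative, with values from 2.26 with a pseudocount of 5 to 6.23 with a pseudocount of 0.1.

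The make-up of the family differed between samples. In WT, DCAR_019633.v1.0 supplied 80.2%, 94.6% and 72.0% of the summed FPKM in replicates 1 to 3. In BC its share was 48.6%, 26.1% and 75.1%, so that BC replicate 3 lay within the WT range and the groups overlapped. DCAR_021051.v1.0 took 1.96%, 1.38% and 2.55% in WT replicates 1 to 3 and 35.9%, 57.4% and 18.5% in BC replicates 1 to 3. That was the one share without overlap, with a difference of 35.3 percentage points between the means of 1.96% ± 0.586 and 37.2% ± 19.5 (SD, n = 3). The exact two-sided permutation test gave p = 0.1, or 0.267 adjusted over the 4 copies, in a design that cannot go below 0.1.

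DCAR_021051.v1.0 was the leading copy in BC replicate 2, and DCAR_019633.v1.0 was the leading copy in BC replicates 1 and 3. The shares of DCAR_019634.v1.0 were 3.20% ± 3.90 in WT and 9.67% ± 6.30 in BC, and those of DCAR_008053.v1.0 were 12.6% ± 7.80 in WT and 3.17% ± 1.46 in BC (SD, n = 3 each). Both overlapped between the groups, with p = 0.2 and 0.3 by the exact permutation test. Shares of a sample sum to 100%, so the 4 are not independent. Very similar copies can also exchange reads in the authors' RSEM estimates, which divide shared reads between genes.

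**Figure D3:**
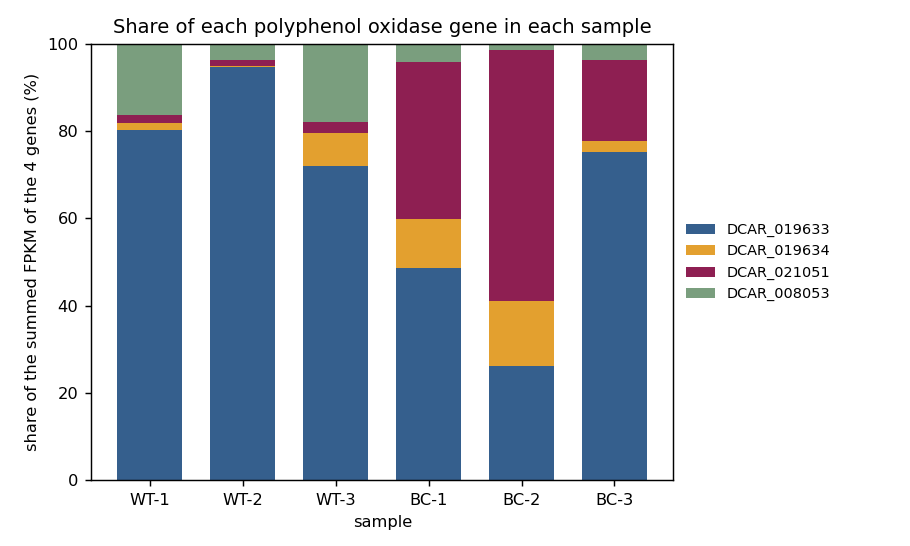
Share of each gene in the summed FPKM of the 4 polyphenol oxidase genes (%), 1 stacked bar per sample. DCAR_019633 makes up most of each WT bar (72.0% to 94.6%), and DCAR_021051 makes up 18.5% to 57.4% of the BC bars.

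Within BC the copies followed different orders. DCAR_021051.v1.0 and DCAR_019634.v1.0 were both highest in replicate 2 and lowest in replicate 3, at ratios of 7.06 and 12.5 between these samples. Among 16245 tested genes with at least 5 FPKM on average in BC and no value of 0 there, the median ratio was 0.954. Ratios as high were found for 0.486% and 0.240% of them. The pair of samples was picked from the values of these members, so genes spread as widely over another pair are not counted. DCAR_019633.v1.0 and DCAR_008053.v1.0 had ratios of 0.790 and 0.924 between the same samples. The order of replicate 2 over 1 over 3 was itself common, at 19.5% of those genes. The root marker sums of 9350, 10717 and 4956 FPKM in BC replicates 1 to 3 ran in that order too. They consisted mostly of DCAR_027034.v1.0, described as a pathogenesis-related protein, at 8060, 9076 and 4222 FPKM in these samples. The green tissue marker sums of 25237, 24202 and 21622 FPKM did not run in that order. The part of either list in the differences among BC samples was not tested.

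A further 3 rows carry the enzyme's name in another annotation column, not in the NR description. The most abundant is DCAR_019635.v1.0, the ID after DCAR_019634.v1.0, which holds the C-terminal PPO1_KFDV domain without the tyrosinase and middle domains. It was at 55.44, 47.84 and 35.18 FPKM in BC replicates 1 to 3, above any of the 4 members in BC replicates 1 and 3. In WT it was listed at 0 in replicates 1 and 3 and at 0.11 FPKM in replicate 2. The row passed the filter on low values through its BC samples alone, so to be tested it had to be higher in BC. It rose by 5.49 on the log2 scale (SE 0.19, adjusted p = 3.98e-06, Benjamini-Hochberg, limma). With each sample left out in turn the value ran from 5.34 to 5.66 and stayed called. Added to the family, it would supply 53.3%, 35.3% and 47.6% of the sum in BC replicates 1 to 3. The summed level would then be 9.09 ± 6.39 FPKM in WT and 105 ± 30.9 FPKM in BC (SD, n = 3), a ratio of 11.5, and the share of DCAR_019633.v1.0 would no longer overlap between the groups (71.95% to 94.0% in WT, 16.9% to 39.3% in BC). Whether the row is a gene of its own or a piece of the gene model beside it, and whether the WT plants carry its sequence, was not tested. Its fold change, its shares and the ratio with it added therefore describe the row as listed.

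DCAR_008051.v1.0 has all 3 polyphenol oxidase domains together with F-box associated domains. It was at 0.66, 0.32 and 0.64 FPKM in WT replicates 1 to 3 and 0.85, 2.66 and 0.25 FPKM in BC replicates 1 to 3, too low for the filter. BC replicate 2 was again the highest and BC replicate 3 the lowest, 10.6-fold apart, and the groups overlapped. Without the filter its log2 difference was 0.41 (SE 0.39, adjusted p = 0.448, Benjamini-Hochberg, limma). DCAR_021837.v1.0, with no Pfam domain listed, was at 0 in all 6 samples.

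Genes numbered next to the pair DCAR_019633.v1.0 and DCAR_019634.v1.0, looked at after their values were seen, behaved in different ways. DCAR_019637.v1.0, a polyadenylate-binding protein-interacting protein, averaged 31.8 ± 1.42 FPKM in WT roots against 36.2 ± 2.08 FPKM in BC roots (adjusted p = 0.134, not called, Benjamini-Hochberg, limma). Its RefSeq match directly follows that of DCAR_019634.v1.0, with 0 RefSeq genes between them, so DCAR_019635.v1.0 and DCAR_019636.v1.0 have no RefSeq gene of their own in that interval. DCAR_019636.v1.0, with a VQ motif, had no value above 0 in WT, and 0.67, 1.93 and 0 FPKM in BC replicates 1 to 3. On the other side DCAR_019631.v1.0, a glucan endo-1,3-beta-glucosidase, rose from 2.71 ± 1.21 to 15.5 ± 3.89 FPKM (2.18 on the log2 scale, adjusted p = 0.00101 by Benjamini-Hochberg, limma). Over the 3 IDs on either side of each member, other than polyphenol oxidases, 16 genes were listed, 7 were tested, 2 rose and 1 fell, close to the 46.4% called over all tested genes. Besides DCAR_019631.v1.0, a solanesyl-diphosphate synthase (DCAR_019630.v1.0) rose by 0.26 on the log2 scale (adjusted p = 0.0494, Benjamini-Hochberg, limma). That call was lost with the pseudocount of 5, the stricter filter, equal totals, median-ratio factors, either other variance prior or the replicate block, and without any 1 sample other than BC replicate 3 (adjusted p = 0.0507 to 0.205, Benjamini-Hochberg, limma). DCAR_008050.v1.0, with no informative description, fell by 0.44, not called without BC replicate 2 or WT replicate 3 (adjusted p = 0.0574 and 0.0747, Benjamini-Hochberg, limma). The gene before DCAR_021051.v1.0, a gibberellin 2-beta-dioxygenase (DCAR_021050.v1.0), averaged 10.8 ± 5.56 and 19.2 ± 13.3 FPKM, not called (adjusted p = 0.369, Benjamini-Hochberg, limma).

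**Figure D4:**
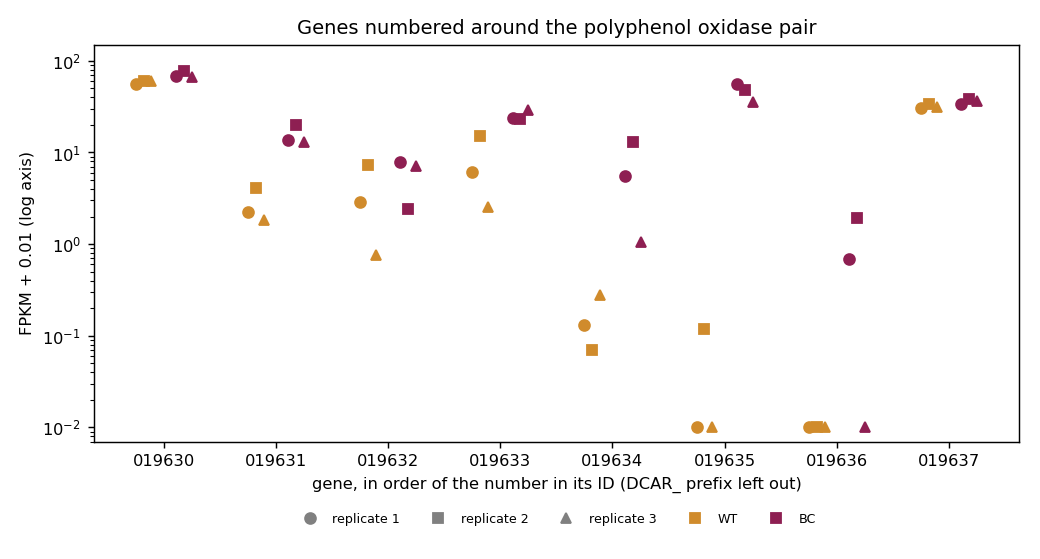
FPKM + 0.01 on a log axis for the 8 genes numbered from DCAR_019630 to DCAR_019637, 1 point per sample, points at 0.01 standing for a value of 0. Within 1 run of IDs, DCAR_019635 goes from 0 or 0.11 FPKM in WT to 35.18 FPKM or more in BC, while DCAR_019637 stays between 30.75 and 38.18 FPKM.

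Genes whose levels most resembled each member over the 6 samples were ranked by Pearson's r of log2(FPKM + 1) among 11470 informatively described genes that averaged 5 FPKM or more in a group. The 6 points share the contrast of BC with WT, so a high r is common: 702 genes exceeded 0.95 with DCAR_021051.v1.0. Nearest to DCAR_021051.v1.0 were a zinc transporter 5-like gene (DCAR_011701.v1.0, r = 0.9999), a cytidine deaminase (DCAR_024687.v1.0, r = 0.999) and a chloroplastic transketolase (DCAR_008552.v1.0, r = 0.997). Transketolase, an enzyme of the Calvin cycle and the pentose phosphate pathway, moved over a narrow range, with 198.93, 202.3 and 197.35 FPKM in WT replicates 1 to 3 and 261.22, 279.58 and 235.86 FPKM in BC replicates 1 to 3.

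Nearest to DCAR_019634.v1.0 were peroxidase 11 (DCAR_023726.v1.0, r = 0.998), a pathogenesis-related protein 2-like gene (DCAR_002491.v1.0, r = 0.998) and a peroxidase N1-like gene (novel468, r = 0.998). Peroxidases, like polyphenol oxidases, oxidise phenols, but with hydrogen peroxide in place of oxygen. Peroxidase 11 was listed at 0 in WT replicates 1 and 2, at 0.06 FPKM in WT replicate 3, and at 8.37, 19.18 and 1.08 FPKM in BC replicates 1 to 3, the same order of BC samples as its partner.

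DCAR_019633.v1.0 had other partners. A delta-12 fatty acid desaturase of the FAD2 type (DCAR_013552.v1.0, r = 0.996) was at 12.76, 33.27 and 7.28 FPKM in WT replicates 1 to 3 and 53.81, 49.19 and 68.89 FPKM in BC replicates 1 to 3. It shared both the high WT replicate 2 and the high BC replicate 3, and rose by 1.87 on the log2 scale (SE 0.48, adjusted p = 0.0193, Benjamini-Hochberg, limma). Its call was lost without WT replicate 1 (adjusted p = 0.0613), BC replicate 1 (0.0584) or BC replicate 3 (0.0582, Benjamini-Hochberg, limma). An aldehyde dehydrogenase (DCAR_002508.v1.0, r = 0.998) followed the same pattern over a range of 16.07 to 19.24 FPKM. A kinesin-like gene (DCAR_019767.v1.0) had an r of 0.985. For DCAR_008053.v1.0 the nearest were a G protein gamma subunit (DCAR_002359.v1.0, r = 0.992), a SEC13 homolog (DCAR_006712.v1.0, r = 0.991) and a lysine methyltransferase (DCAR_021451.v1.0, r = 0.990).

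Genes described as making the phenols on which polyphenol oxidases act were mostly higher where they changed. Many are named only as like such an enzyme, among them caffeoylshikimate esterase-like and 4-coumarate-CoA ligase-like genes. Of 31 tested, 16 rose and 1 fell, and the median log2 fold change was 0.63 against -0.02 over all tested genes (22.8% of which rose and 23.5% fell). For some of these the filter fixed the direction in advance. DCAR_014989.v1.0, DCAR_017697.v1.0, DCAR_020833.v1.0 and DCAR_016310.v1.0, below 1 FPKM in every WT sample, could only rise. DCAR_027611.v1.0, below 1 FPKM in every BC sample, could only fall. With the filter at 5 FPKM, 10 rose and 0 fell. The list's summed level was 231 to 253 FPKM in WT and 450, 536 and 374 FPKM in BC replicates 1 to 3, the order of DCAR_021051.v1.0. The cinnamate hydroxylase gene DCAR_018641.v1.0 had the largest rise, a log2 fold change of 2.98. The one fall was that of DCAR_027611.v1.0, described as like the same enzyme, at -1.42. Of highest level was a shikimate O-hydroxycinnamoyltransferase (DCAR_017914.v1.0), at 29.8 ± 3.07 and 38.3 ± 4.73 FPKM, which did not pass (adjusted p = 0.0578) except without BC replicate 3 (0.0321, Benjamini-Hochberg, limma). This enzyme and cytochrome P450 98A lead to caffeic acid esters, good substrates of polyphenol oxidase. Both tested cytochrome P450 98A2 genes, named here after their values were seen, rose. DCAR_007257.v1.0 was at 4.69, 7.74 and 5.58 FPKM in WT replicates 1 to 3 and 18.71, 23.43 and 17.54 FPKM in BC replicates 1 to 3. DCAR_020601.v1.0 had 2.01, 1.44 and 2.05 FPKM in the WT samples and 8.77, 17.68 and 3.15 FPKM in the BC samples. Its call was lost without any 1 sample other than BC replicate 3 (adjusted p = 0.0516 to 0.0969, Benjamini-Hochberg, limma). It was also lost with quantile normalization (0.0791, or 0.0795 over all rows), with no filter (0.0524) and with the replicate block (0.0578, Benjamini-Hochberg, limma).

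Tyrosine and DOPA metabolism supplies the other substrate. Of 10 tested genes, which leave out the polyphenol oxidases, 1 rose and 2 fell (0 and 2 with quantile normalization, 0 and 0 without WT replicate 3), beside 22.8% and 23.5% over all tested genes, and the median log2 fold change was -0.04. A prephenate aminotransferase (DCAR_032171.v1.0), which makes arogenate, the precursor of tyrosine and phenylalanine, was the one that rose, from 15.2 ± 1.34 to 22.0 ± 4.25 FPKM, and was not called without any 1 sample other than BC replicate 3 (adjusted p = 0.0526 to 0.120, Benjamini-Hochberg, limma). The falls were those of homogentisate phytyltransferase (DCAR_017980.v1.0), an enzyme of tocopherol synthesis, by 0.57 on the log2 scale, and arogenate dehydrogenase (DCAR_014910.v1.0), which makes tyrosine, by 0.51. The former was not called with WT replicate 2 or 3, or BC replicate 1 or 2, left out (adjusted p = 0.0541 to 0.0945), the latter without WT replicate 3 (0.0580, Benjamini-Hochberg, limma). Homogentisate 1,2-dioxygenase (DCAR_028453.v1.0), of tyrosine breakdown and the most abundant of the list, was at 156 ± 32.6 and 136 ± 12.3 FPKM and passed only without WT replicate 2 (adjusted p = 0.0469, Benjamini-Hochberg, limma).

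Other copper oxidases, a group of laccases, ascorbate oxidase-like proteins and amine oxidases, rose in 5 of 14 tested genes (35.7%, beside 22.8% over all) while 9 did not pass, and the median log2 fold change was 0.67. Without WT replicate 1 or 3 the number that rose was 2, and without BC replicate 1 it was 3. An L-ascorbate oxidase homolog (DCAR_022838.v1.0) reached 59.0 ± 13.9 FPKM in BC from 4.53 ± 0.280 FPKM in WT. A homolog of higher level (DCAR_016750.v1.0) was at 83.5 ± 38.3 and 187 ± 124 FPKM and passed only without BC replicate 2 (adjusted p = 0.0346, Benjamini-Hochberg, limma). Laccase-14-like DCAR_018910.v1.0, named after its values were seen, had the order of DCAR_021051.v1.0 in BC, with 5.95, 15.54 and 1.01 FPKM in replicates 1 to 3 and at most 0.07 FPKM in WT. It was not called when any WT sample or BC replicate 1 was dropped (adjusted p = 0.0531 to 0.0751, Benjamini-Hochberg, limma).

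Polyphenol oxidase needs copper, which reaches the thylakoid lumen of plastids through the ATPases PAA1 and PAA2 in Arabidopsis. Of 37 tested genes in a list for copper supply, whose search words also named heavy metal-associated isoprenylated proteins and metallothioneins, 12 rose and 6 fell (32.4% and 16.2%, beside 22.8% and 23.5% over all), and the median log2 fold change was 0.23. Most of the tested rows, and most that rose, were heavy metal-associated proteins or metallothioneins. The percentages therefore say little of copper transporters and chaperones. Without BC replicate 1 the number that rose was 7. The genes described as PAA1 (DCAR_001785.v1.0) and PAA2 (DCAR_001233.v1.0), named after their values were seen, rose from 16.5 ± 2.45 to 30.5 ± 3.30 FPKM and from 10.6 ± 2.14 to 15.6 ± 0.362 FPKM. PAA2 was not called with equal FPKM totals (adjusted p = 0.0587), nor when WT replicate 1 or 3 or BC replicate 1 or 2 was dropped (0.0650 to 0.0909, Benjamini-Hochberg, limma). The next row by number, described both as a potassium transporter and as PAA1 (DCAR_001786.v1.0), had a log2 difference of -0.21 (adjusted p = 0.135) and passed only without BC replicate 3 (0.0413, Benjamini-Hochberg, limma). Other tested copper-transporting ATPases of the list did not rise. RAN1-like DCAR_003767.v1.0 fell from 31.7 ± 4.34 to 19.1 ± 1.68 FPKM. RAN1-like DCAR_001287.v1.0 and HMA5 DCAR_031554.v1.0 were not called (adjusted p = 0.409 and 0.838, Benjamini-Hochberg, limma). SQUAMOSA promoter-binding-like protein 7 (DCAR_015862.v1.0), the regulator of the copper deficiency response in Arabidopsis, fell from 10.6 ± 3.04 to 0.303 ± 0.284 FPKM. Metallothionein-like genes went both ways, from 35.1 ± 7.47 to 396 ± 302 FPKM for DCAR_005336.v1.0 and from 1763 ± 177 to 470.1 ± 286 FPKM for DCAR_018908.v1.0. Neither was called without WT replicate 1 (adjusted p = 0.0591 and 0.0568), nor the former without BC replicate 1 (0.0696) or the latter without WT replicate 3 (0.0599, Benjamini-Hochberg, limma).

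Among 11 tested genes whose descriptions name plastocyanin or superoxide dismutase, 3 rose and 5 fell (27.3% and 45.5%, beside 22.8% and 23.5% over all). Their median log2 fold change was -0.20. The search words, meant for copper proteins, also caught manganese and iron superoxide dismutases. A copper chaperone for superoxide dismutase (DCAR_006775.v1.0) was caught too, which fell and is also counted under copper supply. Plastocyanin A (DCAR_013894.v1.0), the copper protein that carries electrons in the thylakoid lumen, rose from 9.13 ± 1.60 to 135 ± 13.6 FPKM. Copper-zinc superoxide dismutases fell for DCAR_003297.v1.0, from 163 ± 45.3 to 6.63 ± 4.14 FPKM, and for the most abundant gene, DCAR_030571.v1.0, from 657 ± 152 to 319 ± 58.8 FPKM. The chloroplastic enzyme (DCAR_015506.v1.0), also picked with its values known, reached 231 ± 34.0 FPKM in BC from 173 ± 0.951 FPKM in WT, but was not called with median-ratio factors (adjusted p = 0.0519), the replicate block (0.0545) or any 1 sample other than BC replicate 3 left out (0.0607 to 0.0983, Benjamini-Hochberg, limma).

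Polyphenol oxidase enters the lumen by the Tat pathway, the pH-driven import route for folded proteins. Of its 7 tested genes 1 rose (2 without WT replicate 2) and 1 fell, 14.3% each beside 22.8% and 23.5% over all, and the median log2 fold change was -0.04. A TATA gene (DCAR_006653.v1.0) rose from 119 ± 5.23 to 158 ± 3.86 FPKM, a TatB-like gene (DCAR_023471.v1.0) fell from 32.8 ± 0.676 to 15.1 ± 2.44 FPKM, and a thylakoidal processing peptidase (novel1434) was at 235 ± 20.7 and 274 ± 4.03 FPKM, called only without WT replicate 2 (adjusted p = 0.0330, Benjamini-Hochberg, limma). Jasmonate induces polyphenol oxidase genes in tomato. Of 18 tested genes of jasmonate synthesis and response 3 rose and 5 fell (16.7% and 27.8%, near the 22.8% and 23.5% over all), with a median of -0.10. Without BC replicate 3 it was 5 that rose, and without WT replicate 1 or BC replicate 1 it was 3 that fell. TIFY 10A (DCAR_007653.v1.0), of the family of jasmonate response repressors, rose from 1.61 ± 0.481 to 8.92 ± 1.42 FPKM, and a TIFY 6A-like gene (DCAR_007322.v1.0) fell from 137 ± 7.84 to 64.7 ± 7.87 FPKM.

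Of 31 tested genes whose names include quinone reductases and ascorbate-recycling enzymes 12 rose and 4 fell (38.7% and 12.9%, beside 22.8% and 23.5% over all; 2 fell without WT replicate 3), and the median log2 fold change was 0.23. The list was meant for enzymes that return quinones to phenols or remove peroxide, and its words also caught respiratory and plastid NAD(P)H dehydrogenases. A quinone reductase of the FQR1 type (DCAR_004165.v1.0) rose from 1.12 ± 0.110 to 10.0 ± 6.86 FPKM. Cytosolic ascorbate peroxidase (DCAR_006029.v1.0) was the most abundant and went up from 579 ± 103 to 1002 ± 222 FPKM, not called when WT replicate 2 or 3 or BC replicate 1 or 2 was dropped (adjusted p = 0.0637 to 0.0861, Benjamini-Hochberg, limma). The largest fall was that of DCAR_003097.v1.0, described as WVD2-like 6 and as an ascorbate peroxidase, from 189.9 ± 15.2 to 69.9 ± 13.2 FPKM.

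**Figure D5:**
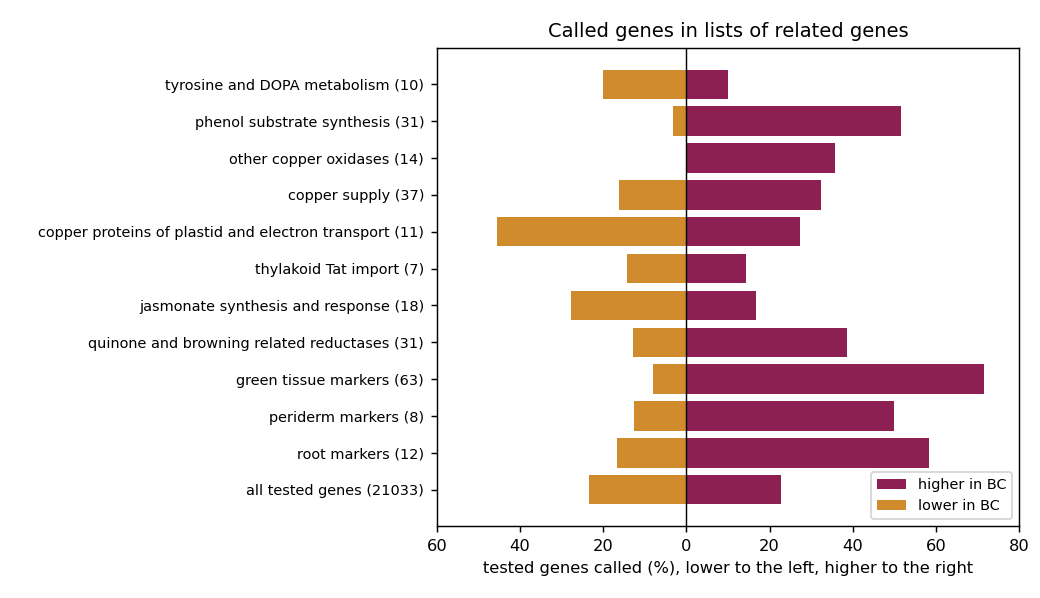
Percentage of tested genes called higher (right) or lower (left) in BC for 11 lists, with the number tested in parentheses, beside all 21033 tested genes. Phenol substrate synthesis reaches 51.6% higher and 3.23% lower, against 22.8% and 23.5% over all tested genes.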

How the data were processed

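The authors deposited 1 table of FPKM per gene and sample, rounded to 2 decimals. RSEM was used, per the submitters' processing notes, and nothing used here names an aligner, a genome build or an annotation. Members and lists were chosen with earlier results of these data known.

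A limma 3.58.1 model (R 4.3.3, eBayes with trend) of log2(FPKM + 1), BC minus WT, took in the 21033 genes that reached 1 FPKM in 3 or more samples. Calls needed a Benjamini-Hochberg adjusted p below 0.05 over all of them. Sums and shares were compared by exact two-sided permutation tests (scipy 1.17.1). The 12 lists were search words for NR descriptions and were counted, not tested as sets. A gene below 1 FPKM in every sample of a group was tested only if it was higher in the other group, and list counts include such genes. By the rule, the text names in each list its most abundant gene and its largest called changes in either direction, and the 3 genes most correlated with each polyphenol oxidase. Some genes under this rule are left unprinted, and those outside it are marked as named after their values were seen. RefSeq accessions in the descriptions gave names and neighbours. Protein and promoter sequences were not used here.

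Alternatives changed the pseudocount (0.1 and 5), filter (none and 5 FPKM), scaling, variance prior, replicate block and samples left out. For the shares, 1 FPKM was also added to each copy.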

Additional observations from a re-analysis of the deposited data

How the results depend on the processing

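All 4 log2 fold changes kept their direction in every alternative run. With a filter at 5 FPKM no value could be had for DCAR_019634.v1.0 and DCAR_008053.v1.0. DCAR_021051.v1.0 stayed called throughout, from 3.41 to 4.74 with a sample left out. DCAR_019634.v1.0 was not called with a pseudocount of 5 (log2 fold change 1.03, adjusted p = 0.0551) or with quantile normalization of the tested genes (1.91, adjusted p = 0.0696), and was called with quantile normalization over all rows, added after the data were seen (2.13, adjusted p = 0.0424, limma with Benjamini-Hochberg). With 1 sample left out it ranged from 1.67 to 3.06, DCAR_019633.v1.0 from 1.28 to 2.37 and DCAR_008053.v1.0 from 0.41 to 0.69. With 1 sample left out, the log2 difference of the summed level ranged from 2.31 to 3.40. Differences in share then ranged from -44.9 to -20.4 percentage points for DCAR_019633.v1.0 and from 25.2 to 44.7 for DCAR_021051.v1.0. They ranged from 3.81 to 9.94 for DCAR_019634.v1.0 and from -13.9 to -6.80 for DCAR_008053.v1.0. With 1 FPKM added to each copy, the differences were -15.2 points for DCAR_019633.v1.0 and 26.5 for DCAR_021051.v1.0. They were 0.265 for DCAR_019634.v1.0, outside its range above, and -11.6 for DCAR_008053.v1.0.

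Genes called over the whole table numbered 6639 to 9931 with 1 sample left out, higher 3446 to 4873 and lower 3193 to 5203. Same-numbered samples did not vary together (r of their deviations from group means 0.20, -0.36 and -0.20 for numbers 1 to 3). With 3 samples in each group, such deviations cannot tell whether same-numbered samples were handled together. With the replicate block 7953 genes were called, and the 3 called members kept their calls (adjusted p = 0.0476 for DCAR_019633.v1.0, 0.0435 for DCAR_019634.v1.0, 0.00655 for DCAR_021051.v1.0 and 0.0737 for DCAR_008053.v1.0, limma with Benjamini-Hochberg). Of 408 list counts 48 moved beyond 1.5 times, 21 of them without leaving out a sample: phenol substrate genes called higher fell to 10 with the filter at 5 FPKM, and other copper oxidases called higher went from 5 to 8 with no filter and 3 with the stricter one. Read depth is unknown, which limits values below 1 FPKM most.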
